A study of Mus musculus with 4 samples.

Results

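The insulin and IGF1 receptor axis was examined through 10 genes, each found as a row of that exact name among the 23358 gene rows of every table. They are the receptors Insr and Igf1r, the ligand Igf1, the receptor substrates Irs1 and Irs2, and the IGF-binding proteins Igfbp3, Igfbp4, Igfbp5, Igfbp6 and Igfbp7. All 10 were among the 14496 genes that passed the filter on low counts and were tested. Poly(A) RNA was sequenced, with 2 libraries each, from 2 mouse lines cloned from progenitors of the gut pacemaker, the interstitial cell of Cajal. The line 2xSCS70 came from stomach muscle of H-2Kb-tsA58 mice, whose SV40 large T transgene is temperature-sensitive and driven by an interferon-inducible promoter, and was kept at 39.5 °C with no interferon-gamma. The line 2xSCS2F10 came from stomach muscle of C57BL/6J mice and was kept at 37 °C with 5% chick embryo extract. Both grew in the same neural stem cell medium. Each line is 1 clone, so clone, strain, temperature and medium supplement changed together and cannot be told apart. The labels do not say whether the libraries of a line came from separate cultures, so p-values reflect no more than how these libraries differed, a spread that may be technical.

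Insulin and the insulin-like growth factors bind related receptor tyrosine kinases at the cell surface. The activated receptors phosphorylate the docking proteins IRS1 and IRS2, which feed the PI3K and AKT pathway, while SHC proteins and GRB2 feed the RAS and MAPK pathway. High-affinity binding proteins hold IGFs in the extracellular space, and IGFBP7 is a related protein of lower IGF affinity. In gut muscle, IGF1 is known to support interstitial cells of Cajal, and INSR, IGF1R, CD44 and CD34 are known as surface markers of their progenitors.

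Counts in genes totalled 48971264 and 44737008 in 2xSCS70 and 40319972 and 45098902 in 2xSCS2F10, replicate 1 before replicate 2 here and throughout. Every deposited count was even, so 1 fragment was taken as 2 counts. Levels between lines are given in CPM (counts relative to the TMM-scaled library size) and levels between genes in the deposited RPKM, which relate counts to length. The defining receptor of mature interstitial cells, Kit, had 0 and 1 fragments in 2xSCS70 and 0 and 0 in 2xSCS2F10. Ano1, the chloride channel of these cells, had 63 and 62 fragments in 2xSCS70 and 580 and 350 in 2xSCS2F10 (9.96-fold lower in 2xSCS70, adjusted p = 0.00219). Etv1, the other listed marker of mature cells, had 15 and 19 fragments in 2xSCS70 and 1 and 7 in 2xSCS2F10. It leaned higher in 2xSCS70 and was not called (log2 fold change 1.65, adjusted p = 0.16). The progenitor markers Cd44 and Cd34 were present in all 4, at 245 to 246 and 268 to 298 CPM in 2xSCS70 and at 97.8 to 127 and 49.6 to 98.2 CPM in 2xSCS2F10. The level summed over 7 smooth muscle markers was 674 to 719.7 CPM in 2xSCS70 and 5023 to 8925 CPM in 2xSCS2F10. It was mostly Acta2 (676 and 631 CPM in 2xSCS70, 3255 and 5665 CPM in 2xSCS2F10), with Tagln next in 2xSCS2F10 (1425 and 2682 CPM). Des was not called, and Myocd had at most 1 fragment in any library. Over 7 mesothelial markers the sum was 461 to 554 CPM in 2xSCS70 and 2836 to 3135 CPM in 2xSCS2F10. In 2xSCS70 it was mostly Krt18 (509 and 423 CPM, against 152 and 73.5 CPM in 2xSCS2F10). Krt18 was the only one of them that was higher in 2xSCS70, and the other 6 were lower. Over 5 fibroblast markers the sum was 5463 to 6897 CPM in 2xSCS70 and 11213 to 13951 CPM in 2xSCS2F10. It was mostly Col1a1 (6709 and 5271 CPM in 2xSCS70, 10909.8 and 13335 CPM in 2xSCS2F10), and of the other members Dcn was 49.8-fold lower in 2xSCS70 and Pdgfrb 4.47-fold higher. Epcam of epithelium, Elavl4 of neurons and Emr1 of macrophages had 0 counts in every library, but other genes of these lists did not. Cdh1 had 9 and 6 fragments in 2xSCS70 and 244 and 126 in 2xSCS2F10 (33-fold lower in 2xSCS70), Uchl1 had 16.7 and 11.5 CPM in 2xSCS70 and 278 and 255 CPM in 2xSCS2F10 (18.9-fold lower), and Cd68 had 80 and 95 fragments in 2xSCS70 and 30 and 33 in 2xSCS2F10 (2.08-fold higher). Each of these 3 passed the test.

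Between the lines, Insr and Igf1 overlapped in CPM, Igf1r was modestly lower in 2xSCS70, and the substrates moved in opposite directions. Of the 5 binding proteins, 4 were 6.02-fold to 127-fold lower in 2xSCS70. In edgeR's quasi-likelihood test, with Benjamini-Hochberg adjustment over all tested genes and a threshold of 0.05, 8 of the 10 genes changed. Irs1 and Igfbp5 rose in 2xSCS70, and Igf1r, Irs2, Igfbp3, Igfbp4, Igfbp6 and Igfbp7 fell. Of all tested genes 40.6% changed, with 18.8% higher and 21.8% lower. For 8 of the 10 genes the libraries of the lines did not overlap in CPM, as for 77.4% of tested genes. In bulk RNA, fewer cells of a type and less RNA per cell cannot be told apart. Leaving out either 2xSCS70 library, which leaves a lone library in that line, ended several of these calls. It also ended most calls among all tested genes. Leaving out a 2xSCS2F10 library ended no call of the 8 genes. The spread then comes from the 2xSCS70 pair alone, which lay closer together. Over all tested genes the median absolute log2 difference between libraries was 0.13 in 2xSCS70 and 0.29 in 2xSCS2F10. Calls among all tested genes became more numerous in these cases, so they are a weak check. The calls of Igfbp4, Igfbp6 and Igfbp7 held whichever library was left out, and all 8 genes kept their direction.

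**Figure D1:**
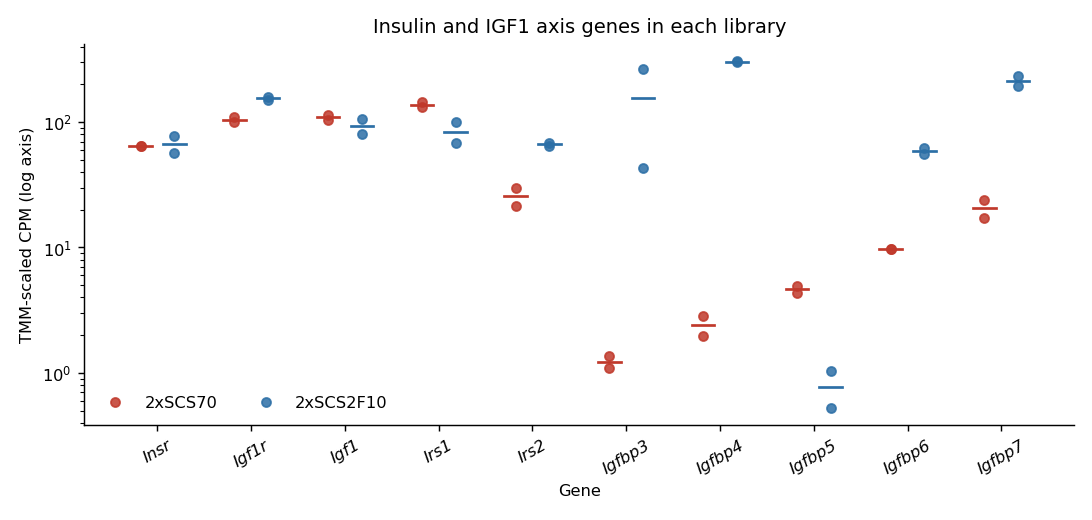
TMM-scaled CPM on a log axis for the 10 genes, with 1 point per library, a bar at the mean of each line, and 2xSCS70 to the left of 2xSCS2F10. Insr and Igf1 overlap between the lines, Igfbp4 sits at 1.97 and 2.83 CPM in 2xSCS70 and at 302 and 306 CPM in 2xSCS2F10, and only Igfbp5 and Irs1 are higher in both 2xSCS70 libraries than in both 2xSCS2F10 libraries.

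Insr, the insulin receptor (chromosome 8, 3150922 to 3279617, mm10, minus strand), had 64.6 and 64.7 CPM in 2xSCS70, against 56.7 and 77.1 CPM in 2xSCS2F10. Both 2xSCS70 values lay inside the range of the other line. The log2 fold change, 2xSCS70 minus 2xSCS2F10, was -0.05 (SE 0.18, adjusted p = 0.839). This direction rested on the scaling: Insr had 6.05 and 5.47 RPKM in 2xSCS70 and 4.68 and 5.32 RPKM in 2xSCS2F10, and the change was 0.04 under upper quartile scaling and 0.17 on log2(RPKM + 1) values. Without 2xSCS2F10 replicate 1 Insr passed as lower (log2 fold change -0.27, adjusted p = 0.0359), and without its replicate 2 the sign turned (0.19).

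Igf1r, the receptor of IGF1 and IGF2 (chromosome 7, 67952257 to 68233667, plus strand), had 109 and 101 CPM in 2xSCS70, against 151 and 159 CPM in 2xSCS2F10. The libraries of the lines did not overlap, and the gap between lines was wider than that within either. Igf1r was 1.48-fold lower in 2xSCS70 (log2 change -0.57 with SE 0.11, adjusted p = 0.0174). The call ended without 2xSCS70 replicate 1 (adjusted p = 0.158) or replicate 2 (0.208) and against a null of 1.5-fold (0.608). In RPKM, with 1 or 0.1 added before the log, it ended too (0.27 and 0.262).

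Per length, Igf1r exceeded Insr in every library. The ratio of Igf1r to Insr in RPKM was 1.32 and 1.22 in 2xSCS70 and 2.08 and 1.62 in 2xSCS2F10. Both 2xSCS70 ratios were below both 2xSCS2F10 ratios, a difference of -0.54 on the log2 scale. The exact two-sided permutation test over libraries gave p = 0.333, which is the smallest p that 2 libraries against 2 allow.

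Igf1, the ligand (chromosome 10, 87859056 to 87937047, plus strand), had 104 and 115 CPM in 2xSCS70, against 79.8 and 106 CPM in 2xSCS2F10. The ranges overlapped in CPM, and the log2 fold change of 0.23 did not pass (SE 0.17, adjusted p = 0.322). In RPKM they did not overlap, at 11.6 in both 2xSCS70 libraries and at 7.87 and 8.73 in 2xSCS2F10. On log2(RPKM + 1) values the change was 0.44 and did not pass either (limma, adjusted p = 0.0981). Igf1 passed as higher without 2xSCS2F10 replicate 2 (log2 fold change 0.45, adjusted p = 0.000704).

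The other ligand of the receptor, Igf2, was far more abundant than Igf1 in 2xSCS2F10. Per length, Igf2 stood at 18.9 and 18.6 RPKM in 2xSCS70 and at 212 and 256 RPKM in 2xSCS2F10. Igf1 stood at 11.6 RPKM in both 2xSCS70 libraries and at 7.87 and 8.73 RPKM in 2xSCS2F10. The ratio of Igf2 to Igf1 in RPKM was thus 1.63 and 1.6 in 2xSCS70 and 26.9 and 29.3 in 2xSCS2F10. Igf2, a growth factor expressed from the paternal allele, had 91.4 and 99.4 CPM in 2xSCS70, against 1164 and 1679.6 CPM in 2xSCS2F10, and was 14.9-fold lower in 2xSCS70 (log2 change -3.90 with SE 0.24, adjusted p = 0.000862). This call remained with each library left out in turn.

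Igf2r, the receptor that carries IGF2 to lysosomes, was 1.91-fold higher in 2xSCS70, at 253 ± 3.81 CPM, against 132 ± 30.4 CPM in 2xSCS2F10 (SD, n = 2 each, adjusted p = 0.0165). The Igf2r call ended without 2xSCS70 replicate 1 and without its replicate 2. The insulin genes themselves were scarce. Ins1 had 0 fragments in all libraries, and a count of 0 allows up to 3 fragments, or 0.109 and 0.123 CPM in 2xSCS70 and 0.154 and 0.157 CPM in 2xSCS2F10. Ins2, which lies 17.6 kb from Igf2 with no other row between, had 0 and 0 fragments in 2xSCS70 and 12 and 2 fragments in 2xSCS2F10, and was not tested. The insulin receptor-related gene Insrr had 1 and 0 fragments in 2xSCS70 and 19 and 27 in 2xSCS2F10. It was lower by a ratio of 62 (exact 95% interval 10.6 to 2500.3, counting error only), and this call (adjusted p = 0.00672) too ended without 2xSCS70 replicate 1 (0.0505) or replicate 2 (0.062). Its fitted fold of 54.7 was 402 and 30.7 in these cases.

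The substrates moved in opposite directions. Irs1 (chromosome 1, 82233105 to 82291439, minus strand) had 131 and 144 CPM in 2xSCS70, against 100.1 and 68.1 CPM in 2xSCS2F10. Every 2xSCS70 library was above every 2xSCS2F10 library, and Irs1 was 1.63-fold higher (log2 fold change 0.71, SE 0.21, adjusted p = 0.0496). The value lay just under the threshold, and the call ended without 2xSCS70 replicate 1 (0.199) or replicate 2 (0.261), with no filter on low counts (0.0547), on log2(RPKM + 1) values (0.0518) and against a 1.5-fold change (0.338). In the GENCODE annotation 30.9% of the exonic bases of Irs1 are shared with Gm9747 on the other strand, and an unstranded kit cannot tell such reads apart.

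Irs2 (chromosome 8, 10986964 to 11008430, minus strand), the other main substrate, had 29.6 and 21.5 CPM in 2xSCS70, against 68.6 and 65.1 CPM in 2xSCS2F10. No library of one line reached those of the other, and Irs2 was 2.62-fold lower in 2xSCS70 (log2 change -1.39 with SE 0.19, adjusted p = 0.00629). The call ended without 2xSCS70 replicate 2 (adjusted p = 0.0691). Per length, Irs1 to Irs2 stood at a ratio of 1.94 and 2.93 in 2xSCS70 and of 0.639 and 0.458 in 2xSCS2F10, so Irs1 was the more abundant substrate in both 2xSCS70 libraries and Irs2 in both 2xSCS2F10 libraries.

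The binding proteins held the largest differences of the axis. Their promoters are given for Igfbp4 and Igfbp7, the most abundant members in 2xSCS2F10, and for Igfbp5, the member that went the other way. Each is the 250 bases before the RefSeq start on GRCm38.p6, 5′ to 3′ on the strand of the gene, with matches to the motifs named after them in capitals. They lie at chr11:99040994-99041243 (plus strand), chr5:77408046-77408295 (minus strand) and chr1:72874866-72875115 (minus strand).
Igfbp4: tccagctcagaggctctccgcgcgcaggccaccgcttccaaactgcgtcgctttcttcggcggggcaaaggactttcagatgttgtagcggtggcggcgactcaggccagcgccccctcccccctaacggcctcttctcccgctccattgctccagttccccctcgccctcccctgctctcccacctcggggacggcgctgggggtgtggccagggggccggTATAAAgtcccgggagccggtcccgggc
Igfbp7: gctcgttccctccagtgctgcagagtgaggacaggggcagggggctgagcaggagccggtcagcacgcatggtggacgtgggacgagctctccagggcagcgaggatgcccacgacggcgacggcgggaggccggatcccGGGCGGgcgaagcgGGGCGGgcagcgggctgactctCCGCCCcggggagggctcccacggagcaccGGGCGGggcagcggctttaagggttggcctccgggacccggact
Igfbp5: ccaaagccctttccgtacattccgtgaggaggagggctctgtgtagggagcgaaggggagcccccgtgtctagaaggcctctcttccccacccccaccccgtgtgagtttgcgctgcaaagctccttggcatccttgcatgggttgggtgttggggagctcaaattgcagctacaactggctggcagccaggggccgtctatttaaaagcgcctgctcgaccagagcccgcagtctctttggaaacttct
The motifs, searched on both strands, were TATAAA for the TATA box, GGGCGG for the GC box bound by SP1, CCAAT for the site of the factor NF-Y, CACGTG for the E box of helix-loop-helix factors, TGACTCA for AP-1 and GTAAACA for FOXO. Igfbp4 held a TATA box with its first base 28 bases before the start, at position -28. Igfbp7 held 4 GC boxes, at positions -110, -96, -74 and -44. Igfbp5 held none of these letters in this window. No matches overlapped each other. Of 32851 RefSeq promoter windows of this length, 12.4% held the TATA box, 32.7% the GC box, 33.8% the NF-Y letters, 6.02% the E box, 4.46% the AP-1 site and 3.17% the FOXO site. The CpG count was 22 for Igfbp4, 26 for Igfbp7 and 10 for Igfbp5, against a median of 6 over all windows. Promoters of 9 of the 10 genes were matched by symbol, and 0 of the 9 held the AP-1 or the FOXO letters.

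Igfbp4, a binding protein that inhibits IGF action in many cell types (chromosome 11, 99041260 to 99052643, plus strand), had 2.83 and 1.97 CPM in 2xSCS70, against 306 and 302 CPM in 2xSCS2F10. The 2xSCS70 values came from 78 and 48 fragments. Igfbp4 was 126-fold lower in 2xSCS70 (log2 change -6.98 with SE 0.24, adjusted p = 0.000347). Leaving out 2xSCS70 replicate 1 or replicate 2 gave adjusted p = 0.0215 and 0.0213.

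Igfbp7, a secreted protein of vessel walls and stroma (chromosome 5, 77349240 to 77408045, minus strand), had 24.1 and 17.1 CPM in 2xSCS70, against 195 and 232 CPM in 2xSCS2F10. It was 10.4-fold lower in 2xSCS70 (log2 change -3.37 with SE 0.22, adjusted p = 0.00103). Its last bases overlap Polr2b, an RNA polymerase II subunit on the other strand, over 7.03% of its exonic bases. Polr2b had 154 and 156 CPM in 2xSCS70 and 128 and 126 CPM in 2xSCS2F10 and was not called (adjusted p = 0.0864).

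Igfbp6, which prefers IGF2 over IGF1 (chromosome 15, 102144186 to 102149512, plus strand), had 9.8 and 9.66 CPM in 2xSCS70, against 55.3 and 61.7 CPM in 2xSCS2F10. The libraries of each line lay close together. Igfbp6 was 6.02-fold lower in 2xSCS70 (log2 change -2.59 with SE 0.14, adjusted p = 0.000648).

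Igfbp3, the main carrier of IGFs in blood (chromosome 11, 7206091 to 7213923, minus strand), had 1.09 and 1.36 CPM in 2xSCS70, against 42.7 and 268 CPM in 2xSCS2F10. The 2xSCS2F10 libraries differed 6.29-fold from each other, and 0.607% of tested genes differed more between them. Igfbp3 was 127-fold lower in 2xSCS70 (log2 change -6.99 with SE 1.07, adjusted p = 0.00836), with the largest SE of the 10 genes. The fold was 222 without 2xSCS2F10 replicate 1 and 35.1 without its replicate 2. The call ended without 2xSCS70 replicate 1 (adjusted p = 0.0949) or replicate 2 (0.0914). The summed smooth muscle markers were also higher in 2xSCS2F10 replicate 2, at 8925 CPM, than in replicate 1, at 5023 CPM, and their part in the Igfbp3 values was not tested.

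Igfbp5, the binding protein most strongly conserved among vertebrates and held in the matrix (chromosome 1, 72858065 to 72874865, minus strand), was scarce in both lines. It had 4.32 and 4.93 CPM in 2xSCS70, against 1.03 and 0.525 CPM in 2xSCS2F10, from 119 and 120 and from 20 and 10 fragments. Igfbp5 was 5.93-fold higher in 2xSCS70 (log2 change 2.57 with SE 0.39, adjusted p = 0.00841). The call ended without 2xSCS70 replicate 1 (adjusted p = 0.0816) or replicate 2 (0.093).

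Igfbp2, which is no member of the 10, lies 5.59 kb from Igfbp5 with no other row between, and it went the opposite way. It had 4 and 3 fragments in 2xSCS70, against 2307 and 314 in 2xSCS2F10, or 0.145 and 0.123 CPM against 119 and 16.5 CPM. Igfbp2 was 491-fold lower in 2xSCS70 (log2 change -8.94 with SE 1.34, adjusted p = 0.00792). Between the 2xSCS2F10 libraries Igfbp2 was 7.19-fold higher in replicate 1, whereas Igfbp3 was higher in replicate 2. The Igfbp2 fold was 121 without 2xSCS2F10 replicate 1 and 863 without its replicate 2, and the call ended without either 2xSCS70 library and in limma-voom (adjusted p = 0.0825). Igfbp1, the neighbour of Igfbp3 at 3.54 kb, and Igfbpl1 had at most 1 fragment in any library. Igfals, the acid-labile subunit of the blood complex, had 4 and 6 fragments in 2xSCS70 and 0 and 6 in 2xSCS2F10 and was not called (adjusted p = 0.853).

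**Figure D2:**
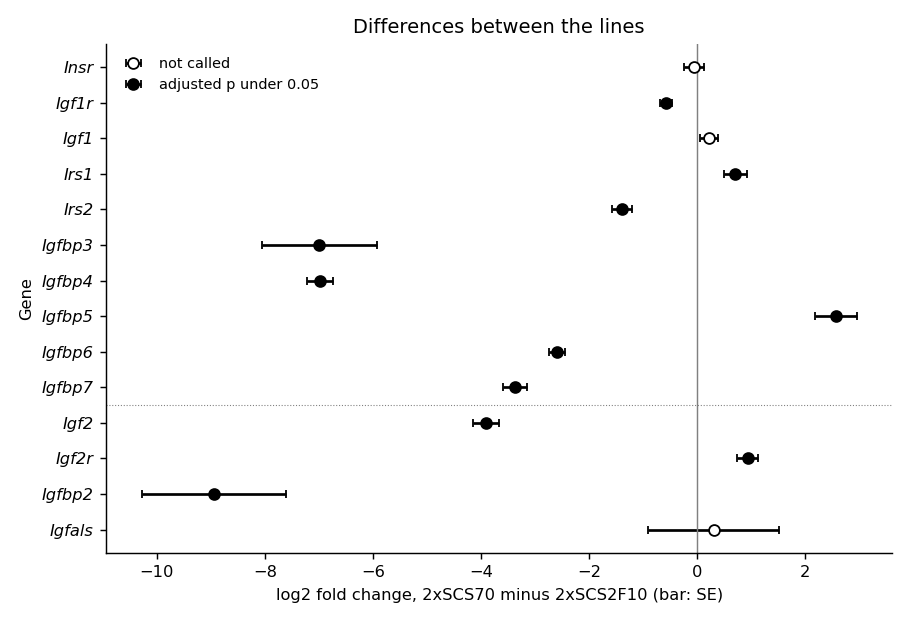
Log2 fold change, 2xSCS70 minus 2xSCS2F10, with SE as bars, for the 10 genes above the dotted line and for tested further ligands, receptors and binding proteins below it. Filled points passed the test; Insrr is left out because it had 1 fragment in 2xSCS70. Igfbp2, Igfbp3 and Igfbp4 lie farthest to the left, at -8.94, -6.99 and -6.98, and Igfbp5 farthest to the right, at 2.57.

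Summed over the 5 binding proteins, the level was 26.3 and 18.9 RPKM in 2xSCS70 and 285 and 319.9 RPKM in 2xSCS2F10. The sum was 13.5-fold lower in 2xSCS70, a log2 difference of -3.76, with p = 0.333 in the exact two-sided permutation test, the smallest that 2 against 2 libraries allow. The sum held other proportions in each line. Igfbp4 made up 4.56% and 3.99% of it in 2xSCS70 and 40% and 29.5% in 2xSCS2F10. Igfbp6 made up 25.3% and 31.3% in 2xSCS70 and 11.6% and 9.66% in 2xSCS2F10. Igfbp7 had the largest share in every library, at 66.2% and 58.9% in 2xSCS70 and 43.6% and 38.6% in 2xSCS2F10. Igfbp3 ranged from 1.48% to 2.32% in 2xSCS70 and from 4.73% to 22.2% in 2xSCS2F10. Of the marker lists, 5 of 6 tested smooth muscle genes, 6 of 7 mesothelial genes and 2 of 4 fibroblast genes were also lower in 2xSCS70. In these lists 0, 1 and 1 genes were higher. Among all tested genes 21.8% were lower and 18.8% higher. The part of these markers in the result was not tested.

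**Figure D3:**
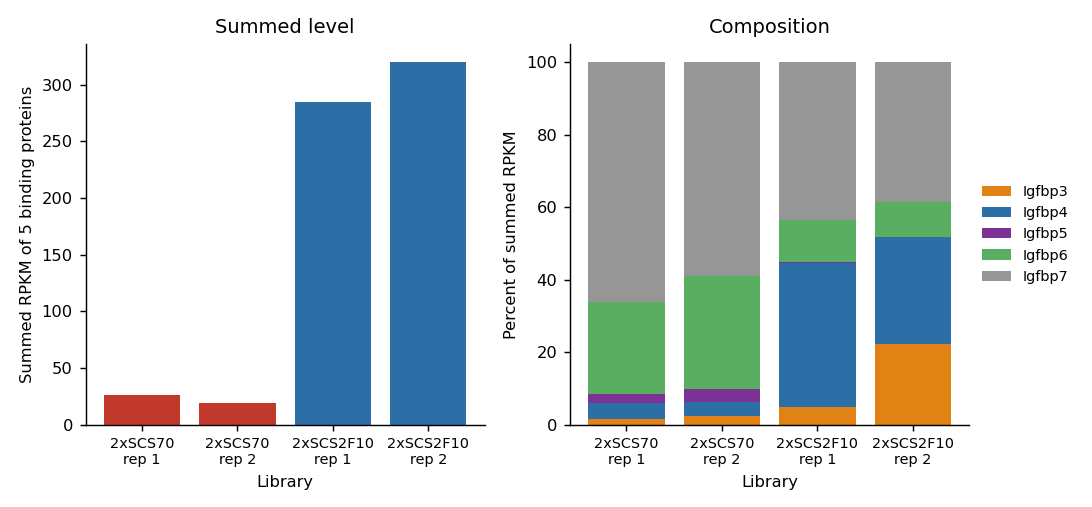
Left, summed RPKM of Igfbp3, Igfbp4, Igfbp5, Igfbp6 and Igfbp7 per library; right, the percent of that sum each gene holds, with 2xSCS70 libraries to the left of 2xSCS2F10 libraries. The sums are 26.3 and 18.9 in 2xSCS70 and 285 and 319.9 in 2xSCS2F10, and the Igfbp4 share is 4.56% and 3.99% against 40% and 29.5%.

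Ordered by mean RPKM, the upper part of the axis in 2xSCS70 was Igfbp7 (14.3 ± 4.44), Irs1 (12.5 ± 0.0832), Igf1 (11.6 ± 0.000951), Igf1r (7.31 ± 0.925), Igfbp6 (6.29 ± 0.519), Insr (5.76 ± 0.413) and Irs2 (5.35 ± 1.57). The lower part ran from these down to Igfbp4 (0.977 ± 0.315), Igfbp5 (0.656 ± 0.0141) and Igfbp3 (0.415 ± 0.0344). The libraries of Igfbp7 and Irs1 overlapped, as did each neighbouring pair from Igf1r to Irs2. In 2xSCS2F10 the order began with Igfbp7 (124 ± 0.549), Igfbp4 (104 ± 13.9), Igfbp3 (42.2 ± 40.6), Igfbp6 (32 ± 1.56) and Irs2 (11.8 ± 1.92). It went on with Igf1r (9.17 ± 0.816), Igf1 (8.3 ± 0.608), Irs1 (6.61 ± 2.57), Insr (5 ± 0.455) and Igfbp5 (0.0966 ± 0.0548), each SD over 2 libraries. Igfbp3 overlapped Igfbp6 there, and each neighbouring pair from Igf1r to Insr overlapped. Among 5445 tested genes with a mean of at least 10 RPKM, the 3 nearest to Igf1r in centred log2 CPM over the 4 libraries were Parva, Atf6 and 2410001C21Rik (Euclidean distance 0.0169, 0.0192 and 0.0269). The 3 nearest to Insr were Ptplad1, Dse and Ift20 (0.0268, 0.0451 and 0.0512).

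**Figure D4:**
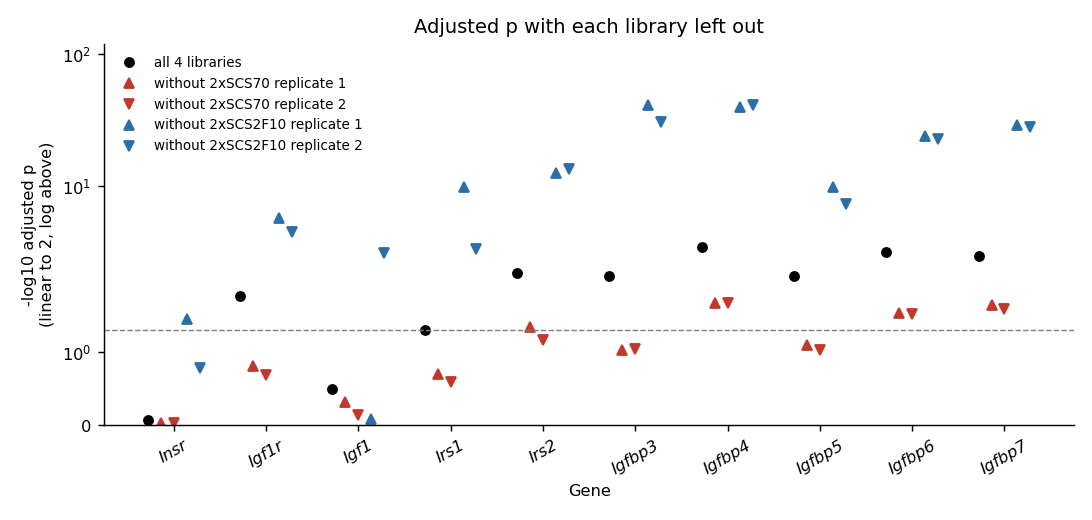
Adjusted p of the 10 genes as -log10, linear up to 2 and logarithmic above, with all 4 libraries (black) and with each library left out. The dashed line marks 0.05. Without a 2xSCS70 library (red) only Igfbp4, Igfbp6 and Igfbp7 stay above it in both cases, and Irs2 does so in 1 of 2.

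Beyond the 10 genes, the wider pathway changed about as often as the transcriptome. Of 101 further genes in 10 lists, 92 were tested, and 8 rose and 25 fell in 2xSCS70. That was 35.9% of them, against 40.6% of all tested genes, and their median log2 fold change was -0.03, against 0.02. Of the 31 called genes that the rule for named genes chose, some stayed called with each library left out in turn. These were Igf2, Pcsk6, Cav1, Grb10, Trib3, Gadd45a and Txnip. Of the others, Sh2b2 lost its call without 2xSCS70 replicate 1, and the rest lost theirs without either 2xSCS70 library. Most calls among all tested genes also ended without either 2xSCS70 library. None of the 31 calls ended without a 2xSCS2F10 library. There the closer 2xSCS70 pair alone set the spread, and calls among all tested genes became more numerous.

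Of 6 genes of proteases that cut binding proteins and of their inhibitors, 3 fell and 0 rose in 2xSCS70. Among all tested genes 40.6% were called. The proteases Htra1 and Adam12 were not called, with log2 fold changes of 0.12 and -0.03. Pappa, the metalloprotease that cuts IGFBP4 and IGFBP5, had 1.45 and 1.11 CPM in 2xSCS70, against 7.4 and 17.7 CPM in 2xSCS2F10 (9.76-fold lower, adjusted p = 0.00817), and 5.75-fold without 2xSCS2F10 replicate 2. Its relative Pappa2 was 3.82-fold lower (3.17 ± 0.279 CPM in 2xSCS70 and 12.1 ± 2.2 CPM in 2xSCS2F10, adjusted p = 0.00431). Stc1, an inhibitor of PAPPA, was 4.78-fold lower (adjusted p = 0.0309), and 2.97-fold without 2xSCS2F10 replicate 1.

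Of 7 genes of receptor processing and insulin breakdown, 6 were tested, and 1 rose and 3 fell, against 40.6% called among all tested genes. Furin, the protease that cleaves the receptor precursors, was 2.19-fold higher in 2xSCS70, at 142 and 121 CPM, against 47.1 and 72.9 CPM in 2xSCS2F10 (adjusted p = 0.02). Pcsk6, a related protease, was 46.5-fold lower, at 3.16 and 3.29 CPM, against 146 and 154 CPM in 2xSCS2F10 (SE 0.14, adjusted p = 0.000347). Caveolin Cav1 was 3.99-fold lower (148 ± 3.58 CPM in 2xSCS70 and 589 ± 15.6 CPM in 2xSCS2F10, adjusted p = 0.000806). The insulin-degrading enzyme Ide was 1.52-fold lower (adjusted p = 0.0137).

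Inside the cell, most of the core signalling genes did not pass the test, and neither did most tested genes. Of all tested genes 40.6% were called, with 18.8% higher and 21.8% lower. In the list of PI3K, AKT, mTOR and FOXO genes 3 rose, 3 fell and 20 of 26 were not called. The kinase genes Akt1 and Akt2 were among these, with log2 fold changes of 0.33 for Akt1 and -0.10 for Akt2. The catalytic subunit Pik3cb was 1.72-fold lower in 2xSCS70 (65.8 ± 0.177 CPM, against 113 ± 0.0617 CPM in 2xSCS2F10, adjusted p = 0.00654). Another catalytic subunit, Pik3ca, named after its value was seen, was 1.51-fold higher (91.6 and 93.6 CPM in 2xSCS70, 56.7 and 65.9 CPM in 2xSCS2F10, adjusted p = 0.0217). Its values with a library left out were not examined. The translation repressor Eif4ebp1 was 2.39-fold lower (adjusted p = 0.00749) and the GTPase Rheb, which activates mTOR, 1.85-fold lower (adjusted p = 0.0149). The kinase Gsk3a was 1.47-fold higher (adjusted p = 0.0184). Of 11 tested adaptor genes 2 rose and 2 fell: the adaptor Sh2b2 was 5.14-fold higher (adjusted p = 0.00367), Gab1 2.11-fold lower (0.00784) and Shc1 1.84-fold lower (0.028). Shc2 had 29 and 15 fragments in 2xSCS70 and 0 and 2 in 2xSCS2F10, higher by a ratio of 16.3 (exact 95% interval 4.26 to 139, adjusted p = 0.0285). Its fitted fold of 15.3 was 7.75 without 2xSCS2F10 replicate 1 and 320.2 without its replicate 2.

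Of 14 tested negative regulators of the receptors and of PI3K signalling, 4 fell, 0 rose and 10 were not called, against 40.6% called among all tested genes. Grb10, an imprinted adaptor that binds and restrains both receptors, had 44.9 and 49.6 CPM in 2xSCS70, against 367 and 379 CPM in 2xSCS2F10. It was 7.89-fold lower (log2 fold change -2.98, SE 0.13, adjusted p = 0.000474). Trib3, a pseudokinase that binds AKT and is known as a stress gene, was 8.47-fold lower (24.2 ± 4.87 CPM in 2xSCS70 and 205 ± 46.6 CPM in 2xSCS2F10, adjusted p = 0.00155). Pik3ip1, a PI3K inhibitor, was 3.15-fold lower (0.0218) and the phosphatase Ptpn2 1.34-fold lower (0.0453). Blocking on the replicate number also ended the Ptpn2 call (0.0914).

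Of 10 genes of the RAS and MAPK arm, 3 fell and 0 rose, against 40.6% called among all tested genes. Braf, a kinase downstream of RAS, was 2.62-fold lower in 2xSCS70 (65.2 ± 1.9 CPM, against 171 ± 6.52 CPM in 2xSCS2F10, adjusted p = 0.00165), and Nras was 1.7-fold lower (0.00859). Of 11 tested genes known as FOXO targets, 4 fell and 0 rose, also against 40.6% called among all tested genes. They were the stress gene Gadd45a (4.33-fold lower, adjusted p = 0.00133), the thioredoxin-binding Txnip (3.42-fold, 0.00134), the cell cycle inhibitor Cdkn1b (1.6-fold, 0.0143) and the transcriptional regulator Cited2 (1.94-fold, 0.0257). Other pathways also control each of these genes. Of 3 IGF2 mRNA-binding proteins, Igf2bp2 was 1.86-fold higher in 2xSCS70 (100.1 ± 3.45 CPM, against 53.8 ± 11.7 CPM in 2xSCS2F10, adjusted p = 0.0175) and the other 2 were not called.

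**Figure D5:**
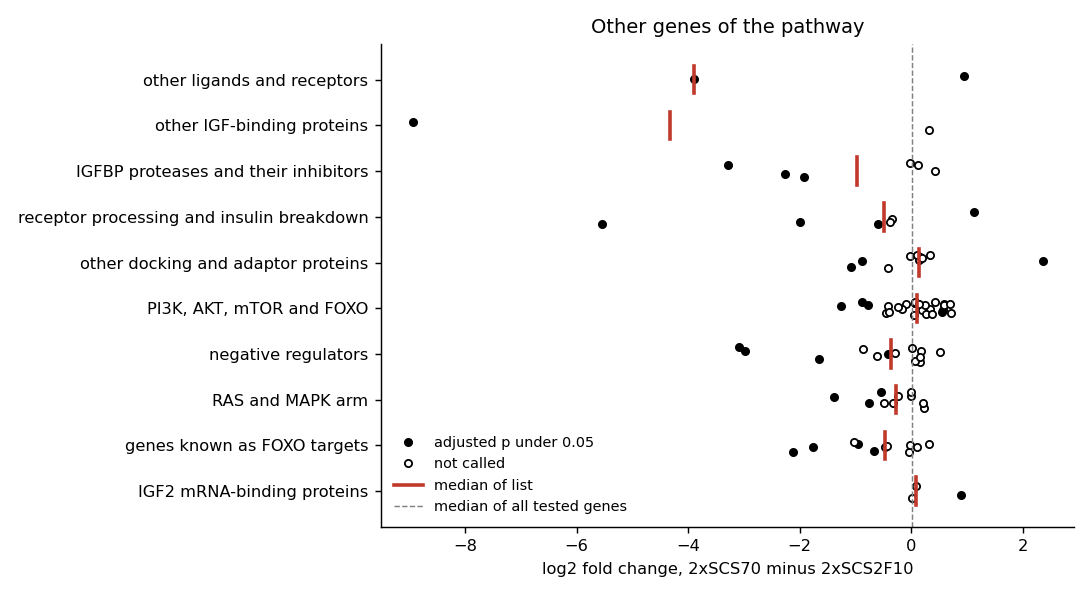
Log2 fold change, 2xSCS70 minus 2xSCS2F10, of tested genes in 10 pathway lists, 1 point per gene, filled where the adjusted p was under 0.05, with the median of each list in red and that of all tested genes dashed. Insrr, Shc2 and Enpp1, with 1, 2 and 2 fragments in a line, are left out as points. Enpp1, in the list of negative regulators, had a log2 fold change of -4.65 and was not called (adjusted p = 0.0553). Proteases and their inhibitors, other IGF-binding proteins, negative regulators, RAS and MAPK genes and FOXO targets hold filled points on the left side only. The IGF2 mRNA-binding proteins hold 1 filled point, on the right, and 20 of 26 points of the PI3K list are open. Among all tested genes 40.6% were called, 18.8% higher and 21.8% lower.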

How the data were processed

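The labels' protocols name miRNeasy extraction and unstranded TruSeq mRNA libraries. The submitters' processing notes name TopHat2 2.0.6, Bowtie, HTSeq and mm10, and no annotation. Per the file headers, each table the authors deposited holds raw gene counts and RPKM, scaled by a length headed as coding, of which 37.8% are multiples of 3, and by library reads. In replicate 1 of both lines, 25 gene names had become dates and were restored by row.

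Groups follow the labels. Counts were tested with edgeR 4.0.16 in R 4.3.3 (TMM, filterByExpr, quasi-likelihood, Benjamini-Hochberg), 2xSCS70 minus 2xSCS2F10, and the test was tested on simulated data. SE is the absolute log2 fold change over the square root of F. DESeq2 1.42.0 and limma 3.58.1 (log2(RPKM + 1) and log2(RPKM + 0.1), with a trend) were alternatives, with other scalings and filters, a replicate block, single libraries left out, a 1.5-fold null and fragments. Python 3.11.15 and matplotlib 3.10.9 made tables and plots. Overlaps came from GENCODE on GRCm38, promoters from RefSeq. Members and lists were chosen with earlier results of these data known. Named pathway genes are up to 4 called per list by adjusted p, and every further ligand, receptor and binding protein. Htra1, Adam12, Akt1, Akt2, Pik3ca and Enpp1 are named outside this rule. Hras was read from its older symbol. Some genes are not reported here.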

Additional observations from a re-analysis of the deposited data

How the results depend on the processing

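Direction and call of Igfbp4, Igfbp6 and Igfbp7 held under each of the 15 alternatives run. The number of genes called was 850 to 9567 with a library left out and 3094 against a 1.5-fold change; members called numbered 3 to 9 with a library left out. Leaving out single libraries gave log2 fold changes of -0.27 to 0.19 for Insr, -0.62 to -0.51 for Igf1r, 0.03 to 0.45 for Igf1, 0.45 to 1.0 for Irs1, -1.64 to -1.18 for Irs2, -7.80 to -5.13 for Igfbp3 and 2.16 to 3.12 for Igfbp5. On log2(RPKM + 1) and log2(RPKM + 0.1) values Insr stood at 0.17 and 0.20 and Igf1r at -0.29 and -0.33, not called. Insr was 0.04 under upper quartile scaling. Irs1 was not called at 0.86 on log2(RPKM + 1) values, nor at 0.71 with no filter or against 1.5-fold, nor Igf1r at -0.57 against 1.5-fold. Igfals ran from -0.71 to 6.22 with a library left out, and was called as higher without 2xSCS2F10 replicate 2 (adjusted p = 0.0131), and was -0.11 without 2xSCS70 replicate 2. The summed binding proteins differed by -4.23 in TMM-scaled CPM, and by -3.93 with Igfbp2 in the sum, an alternative chosen after seeing the data. Where not stated, the cause was not tested. RPKM values lack the TMM factors: calls were 3218 higher and 1828 lower on log2(RPKM + 1) and 3377 and 1964 on log2(RPKM + 0.1), against 2727 and 3161, and the median of all tested genes moved to 0.15 and 0.25, and to 0.11 under upper quartile scaling. With the replicate number as a block 5222 genes and 8 members were called, the Igf1r to Insr and summed differences stayed at -0.54 and -3.76, and deviations of same-numbered libraries correlated at 0.054. The labels do not say what the numbers stand for. Igfbp5 had no value under the 5 CPM filter. Of 476 alternatives for 32 pathway genes, 390 kept direction and call and 83 lost the call. Libraries left out leave a lone library taken to vary like the other line. Igfbp3 and Igfbp4 in 2xSCS70 and Igfbp5 in both lines rest on 10 to 120 fragments per library, which limits their folds.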
